A study of Mus musculus with 8 samples.

Results

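Myb, Myc, Sox4 and Gata2 encode 4 transcription factors of blood progenitors, and their messenger RNA was followed here at 6 probe sets of an Affymetrix mouse array, 3 for Myb and 1 each for Myc, Sox4 and Gata2, out of 45101 probe sets in the deposited table. The 6 were chosen by identifier from a list that pairs each with its gene, and that pairing was not checked here against an annotation of the array. The cells came from bone marrow of mice without miR-223 (null) and of wild-type mice, grown in culture in 4 groups with 2 arrays each: null day 8, wild-type day 8, null day 4 and wild-type day 4. Day 8 cells, labelled mature neutrophils, were kept for 6 days in G-CSF, the growth factor that drives granulocyte formation, together with SCF, which binds the receptor c-Kit. They then had 42 hours without SCF, and the sort took cells with Gr-1 and without c-Kit. Day 4 cells, labelled progenitors, had 4 days with both factors, and the sort took cells with c-Kit and without Gr-1. All groups were thus grown with G-CSF in a medium made for isotope labelling (SILAC), and the labels give neither the strain nor the age of the mice, nor whether replicates were separate animals or cultures. Culture day, loss of SCF and the sort gate change together between the days and cannot be told apart. The level of miR-223 itself and the marker genes of either sort were not analysed here, since the files pair no identifier with a gene.

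MYB is a DNA-binding factor that keeps blood progenitors immature and dividing, and is known to decline as granulocytes mature. MYC, as a dimer with MAX, drives growth and division. SOX4, of the SOX family with an HMG-box domain, is best known in lymphoid progenitors and in myeloid leukaemia. GATA2, a zinc-finger factor, maintains stem cells and early progenitors and is kept on in mast cells. MicroRNA miR-223 is made mainly in myeloid cells and rises as granulocytes mature. A microRNA lowers messenger RNAs that pair with its seed near its 5′ end.

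The sequence missing from the null cells is shown first, from the RefSeq table of build GRCm38.p6, chrX:96242884-96242905 on the plus strand, with the seed (bases 2 to 8) in capitals.

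miR-223-3p: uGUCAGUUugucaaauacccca

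The 250 bases before each RefSeq start of the 4 genes in the table of promoters (GRCm38.p6) are shown as well. Shared control of the 4 genes was not tested. The table held 1 start for Myb, 1 for Sox4 and 2 for Gata2, at chr10:21160985-21161234 (minus strand), chr13:28953700-28953949 (minus strand), chr6:88193641-88193890 and chr6:88198414-88198663 (both plus strand). Myc, at chr15:61985341-61990361, had no entry. Capitals mark matches on either strand to the word AACNG read by MYB, CACGTG read by MYC with MAX, AACAAT read by SOX factors, GATAA read by GATA factors, and the CCAAT box, a general promoter word that was added after the sequences had been seen. No 2 of the matches overlapped.

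Myb: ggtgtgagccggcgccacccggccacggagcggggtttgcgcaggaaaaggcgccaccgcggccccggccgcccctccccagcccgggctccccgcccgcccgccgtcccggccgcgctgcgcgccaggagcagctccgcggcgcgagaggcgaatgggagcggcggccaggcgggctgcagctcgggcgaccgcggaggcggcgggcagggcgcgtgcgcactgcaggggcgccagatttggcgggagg
Sox4: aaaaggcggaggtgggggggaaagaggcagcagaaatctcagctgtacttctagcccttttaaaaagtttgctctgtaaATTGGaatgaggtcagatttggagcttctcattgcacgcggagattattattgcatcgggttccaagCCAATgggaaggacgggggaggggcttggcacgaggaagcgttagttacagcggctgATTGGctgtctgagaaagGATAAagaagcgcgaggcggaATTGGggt
Gata2, distal start: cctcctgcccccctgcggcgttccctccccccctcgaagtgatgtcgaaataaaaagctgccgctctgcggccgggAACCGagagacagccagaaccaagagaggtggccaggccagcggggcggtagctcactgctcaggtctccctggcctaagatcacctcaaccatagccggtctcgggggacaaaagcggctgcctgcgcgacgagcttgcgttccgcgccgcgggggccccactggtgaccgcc
Gata2, proximal start: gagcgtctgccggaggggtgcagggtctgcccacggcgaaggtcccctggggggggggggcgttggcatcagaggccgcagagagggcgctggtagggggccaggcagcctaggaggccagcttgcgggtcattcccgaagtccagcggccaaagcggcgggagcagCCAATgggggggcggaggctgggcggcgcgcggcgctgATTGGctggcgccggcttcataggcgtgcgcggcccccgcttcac

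The Sox4 window held 4 CCAAT boxes and 1 GATAA. The proximal Gata2 window held 2 CCAAT boxes, and the distal one held 1 AACNG. None of the 5 words was found in the Myb window. Of the 32851 windows of that length in the table, 74.2% held AACNG, 6.02% CACGTG, 9.42% AACAAT, 22.6% GATAA and 33.8% CCAAT, while 10.1% held at least 2 CCAAT boxes and 0.84% at least 4. These matches describe letters and show no binding.

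The first question was how the 4 factors change as progenitors become neutrophils. All 4 were lower at day 8 in both genotypes. In null cells and in wild-type cells, Sox4 fell the furthest, then Myc, then Gata2, and Myb fell the least of the 4, by 6.50-fold to 7.96-fold in null cells and by 8.32-fold to 10.1-fold in wild-type cells at its 3 probe sets. In bulk samples, fewer cells that hold a transcript and less of it per cell cannot be told apart. The values are log2 signals as deposited, and each change was tested in 1 model over all 8 arrays (limma). A probe set is called when its Benjamini-Hochberg adjusted p over the 22519 probe sets tested is below 0.05.

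**Figure D1:**
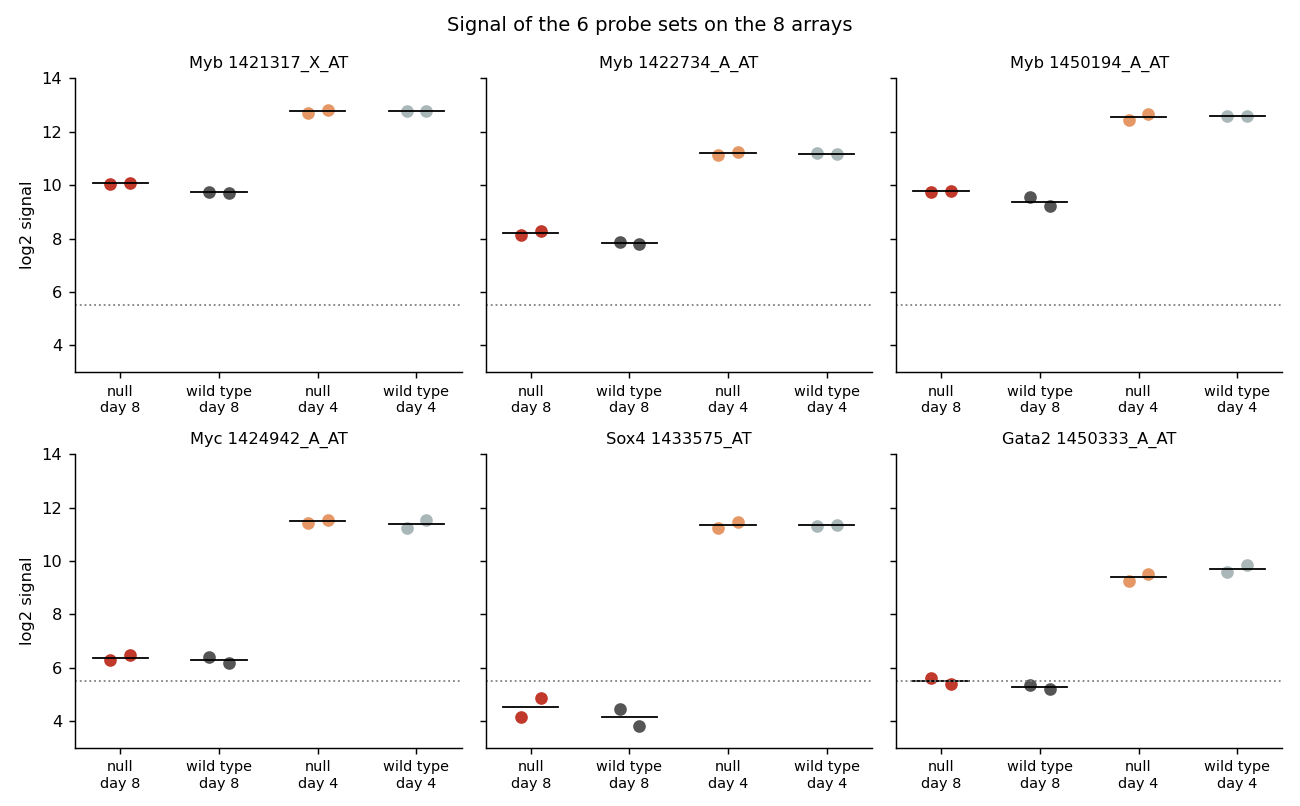
Log2 signal (vertical axis) of the 6 probe sets on each of the 8 arrays, in the groups null day 8, wild-type day 8, null day 4 and wild-type day 4. Points are arrays, short lines are means of 2 arrays, and the dotted line at 5.51 is the mean signal above which a probe set was tested. In every panel the 4 day 8 arrays sit below the 4 day 4 arrays, and the day 8 points of Sox4 lie below the dotted line.

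Myb was well above background on all arrays. Its first probe set, 1421317_X_AT, read 10.06 and 10.08 in null day 8 cells and 9.76 and 9.70 in wild-type day 8 cells, against 12.72 and 12.82 in null day 4 cells and 12.78 and 12.79 in wild-type day 4 cells. The day 8 arrays lay far below the day 4 arrays without overlap, and the order of the group means was wild-type day 4, null day 4, null day 8 and wild-type day 8. The 2 day 4 groups overlapped. The change from day 4 to day 8 was -2.70 in null cells (SE 0.06, 95% interval -2.83 to -2.57, adjusted p = 5.9e-11) and -3.06 in wild-type cells (SE 0.06, -3.19 to -2.92, adjusted p = 4.26e-11). The suffix X of this identifier marks a probe set some of whose probes may also match other transcripts, so it is read beside the other two.

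The second Myb probe set, 1422734_A_AT, read 8.15 and 8.27 in null day 8 cells and 7.89 and 7.79 in wild-type day 8 cells, against 11.15 and 11.26 in null day 4 cells and 11.19 and 11.16 in wild-type day 4 cells. The third, 1450194_A_AT, read 9.76 and 9.78 in null day 8 cells and 9.54 and 9.23 in wild-type day 8 cells, against 12.45 and 12.68 in null day 4 cells and 12.58 and 12.57 in wild-type day 4 cells. Both repeated the picture of the first: the day 8 and day 4 arrays did not overlap, and the day 4 genotypes did. The log2 change of the second was -2.99 in null cells (SE 0.08, adjusted p = 1.71e-10) and -3.34 in wild-type cells (SE 0.08, adjusted p = 1.18e-10). That of the third was -2.80 in null cells (SE 0.10, adjusted p = 1.03e-09) and -3.19 in wild-type cells (SE 0.10, adjusted p = 5.98e-10). The Myb signal left at day 8 was 12.6% to 15.4% of the day 4 signal in null cells and 9.89% to 12.0% in wild-type cells, and it stayed well above the arrays' median of 5.44 to 5.50.

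Myc, at 1424942_A_AT, read 6.28 and 6.48 in null day 8 cells and 6.40 and 6.17 in wild-type day 8 cells, against 11.43 and 11.52 in null day 4 cells and 11.22 and 11.53 in wild-type day 4 cells. The days were far apart and the genotypes overlapped on each day. The change was -5.10 in null cells (SE 0.12, 95% interval -5.37 to -4.83, adjusted p = 8.91e-11) and -5.09 in wild-type cells (SE 0.12, -5.36 to -4.82, adjusted p = 1.21e-10), a fall of 34.3-fold in null cells and 34.1-fold in wild-type cells. The signal left was 2.92% of that at day 4 in null cells and 2.93% in wild-type cells. Of the probe sets on each day 8 array, 59.1% to 62.4% read lower than Myc, against 46.0% to 51.7% for Gata2. Whether background limits the size of the Myc fall was not tested.

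Sox4, at 1433575_AT, read 4.17 and 4.86 in null day 8 cells and 4.47 and 3.82 in wild-type day 8 cells, against 11.25 and 11.47 in null day 4 cells and 11.31 and 11.35 in wild-type day 4 cells. Its signal was near background at day 8, where the arrays' lower quartile was 3.96 to 4.00. The day 8 arrays of both genotypes overlapped and were more widely spread (SD 0.49 in null and 0.45 in wild type) than those at day 4 (SD 0.16 and 0.02). The change was -6.84 in null cells (SE 0.23, 95% interval -7.35 to -6.34, adjusted p = 6.52e-10) and -7.18 in wild-type cells (SE 0.23, -7.69 to -6.68, adjusted p = 6.28e-10). That is a fall of 115-fold in null cells and 145-fold in wild-type cells. With day 8 near background, the size can depend on any background correction, which is not described in the sources and whose effect was not tested.

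Gata2, at 1450333_A_AT, ended near the arrays' median at day 8, higher than Sox4, and its distance from background was not measured. It read 5.61 and 5.38 in null day 8 cells and 5.35 and 5.21 in wild-type day 8 cells, against 9.26 and 9.53 in null day 4 cells and 9.58 and 9.83 in wild-type day 4 cells. Its highest group was wild-type day 4 and its lowest wild-type day 8, with both null groups between them. No 2 groups overlapped, but the nearest arrays of the genotypes were only 0.02 apart at day 8 and 0.05 at day 4. Such a lack of overlap was found at 30.4% of tested probe sets at day 8 (null higher) and 27.8% at day 4 (null lower). Neither genotype difference was called. The change was -3.90 in null cells (SE 0.14, 95% interval -4.20 to -3.60, adjusted p = 8.87e-10) and -4.42 in wild-type cells (SE 0.14, -4.72 to -4.12, adjusted p = 5.65e-10), a fall of 14.9-fold in null cells and 21.4-fold in wild-type cells.

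**Figure D2:**
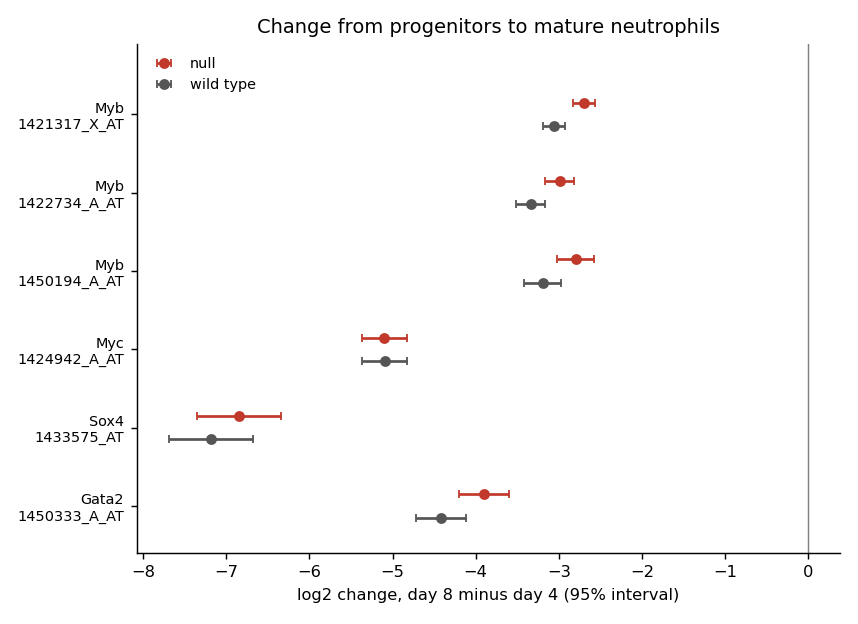
Log2 change, day 8 minus day 4 (horizontal axis), of the 6 probe sets in null cells and in wild-type cells. Points are estimates from 2 arrays a group and bars are 95% intervals of the model. All bars lie left of 0, Sox4 lies furthest left (-6.84 in null, -7.18 in wild type), and the points of Myc nearly coincide.

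These falls have to be read against a change of great breadth. Of all probe sets tested, 39.9% were called lower at day 8 in null cells and 41.7% in wild-type cells, and the arrays of the 2 days did not overlap, with day 8 lower, at 45.3% in null cells and 46.2% in wild-type cells. The call alone therefore says little about the 6. Their size stood further out: 6.73% of probe sets in null cells and 6.74% in wild-type cells were called lower by 4-fold or more, as all 6 were in both genotypes. A fall of 16-fold or more was called for 0.48% of probe sets in null cells, Sox4 and Myc among them, and for 0.351% in wild-type cells, with Gata2 as well. The median change was -3.45 over the 6 against 0.00 over all tested in null cells, and -3.88 against -0.04 in wild-type cells. Sox4 and Gata2 had day 8 means below the filter value of 5.51 and were tested because of their day 4 signal, so these counts and medians describe the 6 and support nothing further. With no filter, 23.5% of 45037 probe sets were called lower in null cells and 24.6% in wild-type cells, and again all 6.

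**Figure D3:**
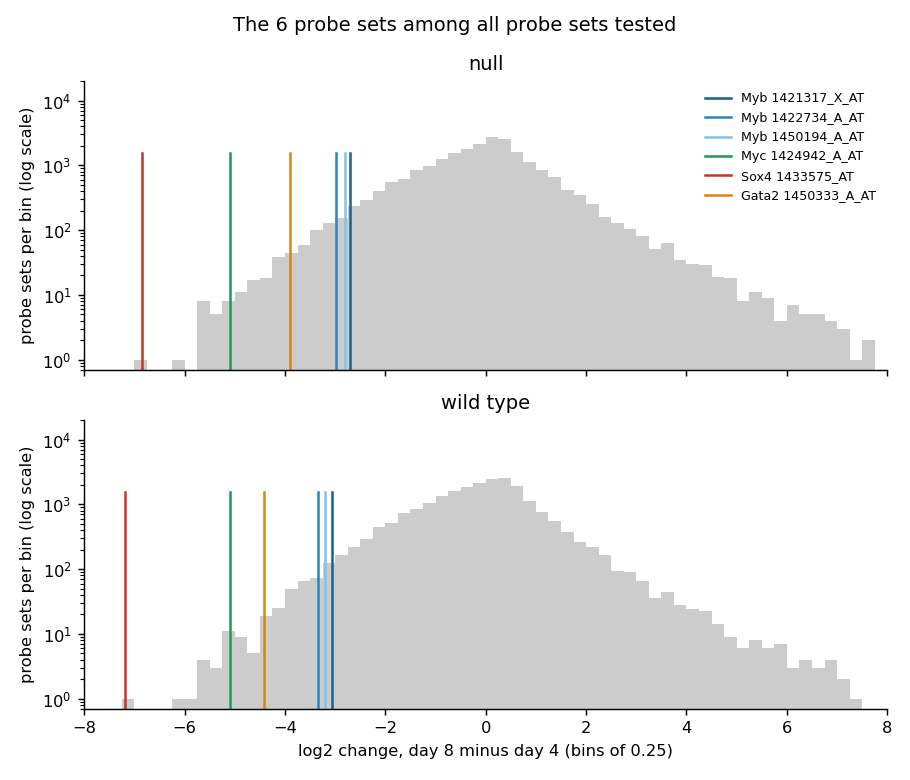
Number of tested probe sets (vertical axis, log scale) by log2 change from day 4 to day 8 in bins of 0.25, in null cells (upper panel) and wild-type cells (lower panel), with coloured lines at the 6 probe sets. No other tested probe set lies left of Sox4 in either panel, and the 3 Myb lines stand close together.

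By rank among the 22519 tested probe sets, 0 had a more negative change than Sox4 in either genotype. For Myc the number was 21 in null cells and 19 in wild-type cells, for Gata2 124 in null and 44 in wild type, and for the 3 Myb probe sets 448 to 630 in null and 239 to 364 in wild type. Sox4 and Gata2 passed the filter through their day 4 signal, so their ranks too are only descriptive. Fold sizes of different probe sets also depend on how far each can fall before it meets background, so the order of Sox4, Myc and Gata2 is one of measured signal. One sign of RNA integrity moved with the days: the log2 signal of beta-actin at its 3′ over its 5′ control probe set was 0.10 to 0.17 at day 8 and 0.36 to 0.44 at day 4, while for Gapdh it was -0.08 to -0.03 at day 8 and -0.02 to 0.05 at day 4. Its part in the falls was not tested.

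The second question was whether mature neutrophils without miR-223 differ in the 4 factors. Myb was higher in null cells at day 8, by 1.26-fold to 1.31-fold over its 3 probe sets, and 2 of the 3 were called. Myc, Sox4 and Gata2 were not called. The background for this comparison was 4.09% of probe sets called higher and 1.22% called lower in null cells.

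For the first Myb probe set, the null day 8 arrays (10.06 and 10.08) lay above the wild-type day 8 arrays (9.76 and 9.70), a log2 difference of 0.34 (SE 0.06, 95% interval 0.21 to 0.47, adjusted p = 0.00973). The second differed by 0.37 (SE 0.08, 0.20 to 0.55, adjusted p = 0.0237). The third had the largest difference of the 3, 0.39, but also the widest wild-type spread (SD 0.02 in null and 0.22 in wild type), and missed the threshold (SE 0.10, 0.16 to 0.61, adjusted p = 0.054). The null and wild-type arrays did not overlap at any of the 3, nor for Gata2, a pattern that 30.4% of all tested probe sets showed in that direction. Differences more positive than these were found at 7.02%, 5.75% and 5.38% of tested probe sets for the first, the second and the third. The 3 probe sets were read from the same RNA and are not independent samples.

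The Myb difference rested on few arrays. Over the 17 alternatives of processing or arrays it ran from 0.23 to 0.54. Its size cannot move under other filters, other model settings or a change of day 4 arrays. Leaving out 1 day 8 array cannot turn its sign either, since the arrays of the genotypes did not overlap. Under the other normalizations, which could turn the sign, the difference stayed positive at all 3 probe sets, from 0.25 to 0.39. The first was called in 12 of the 17, the second in 10 and the third in 1. No Myb probe set was called without null day 8 replicate 1 (adjusted p = 0.07, 0.0687 and 0.194 for the first, the second and the third), with null day 8 replicate 2 left out (0.0655, 0.154 and 0.188) or with wild-type day 8 replicate 2 left out (0.0781, 0.149 and 0.296). Without wild-type day 8 replicate 1 the first (0.37, adjusted p = 0.0307) and the third (0.54, adjusted p = 0.0206) were called and the second was not (0.42, adjusted p = 0.0521). Without the intensity trend in the model none was called (adjusted p = 0.0637, 0.0658 and 0.139). Scaled to the spiked hybridization controls, none was called either and the differences were 0.25, 0.28 and 0.29 (adjusted p = 0.252, 0.235 and 0.246).

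**Figure D4:**
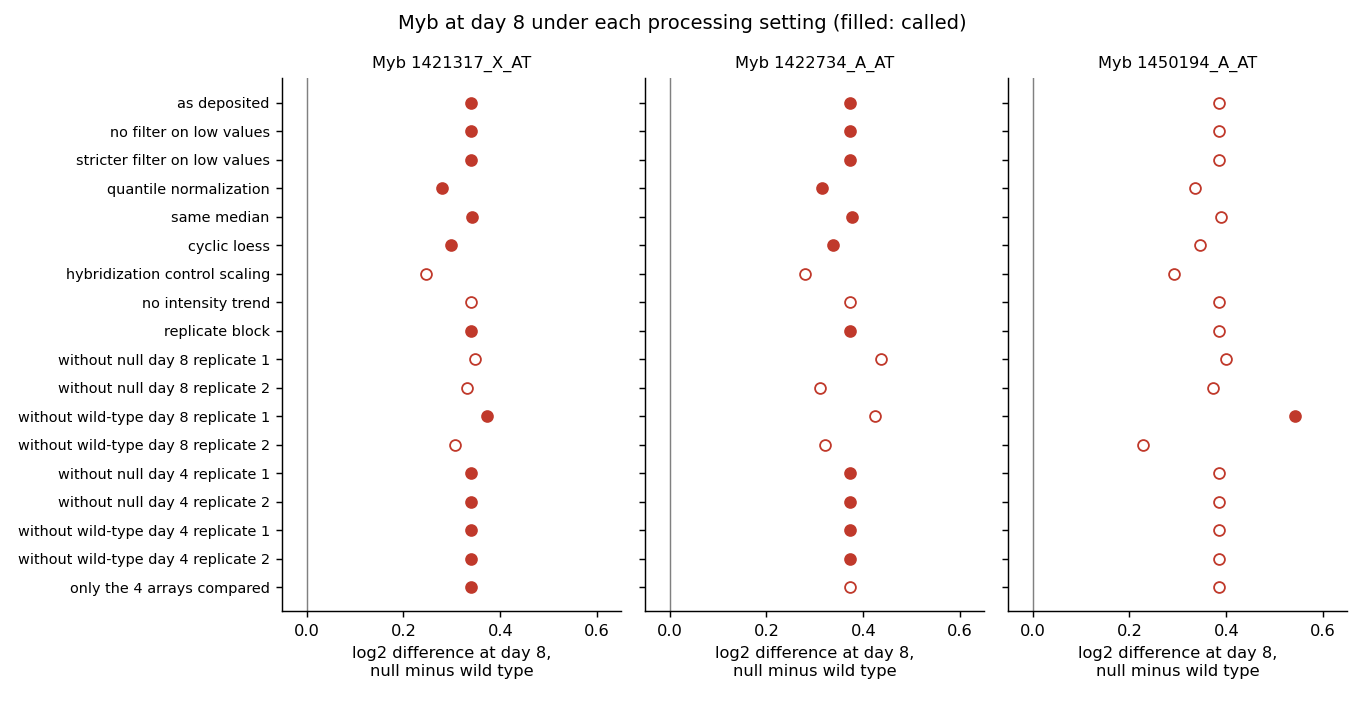
Log2 difference between null and wild-type cells at day 8 (horizontal axis) of the 3 Myb probe sets, for the values as deposited (top row) and under 17 alternatives (other rows). Filled points were called and open points were not. All points lie right of 0, from 0.23 to 0.54, and the calls are lost in several rows. In rows that change only the filter, the model or the day 4 arrays, the points cannot move.

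Myc differed by 0.09 between null and wild-type cells at day 8 (95% interval -0.18 to 0.36, adjusted p = 0.741). For Sox4 the difference was 0.37 (-0.14 to 0.87, adjusted p = 0.416), with both genotypes near background. For Gata2 it was 0.21 (-0.09 to 0.51, adjusted p = 0.443). Single arrays moved these values widely. Myc lay between -0.02, with wild-type day 8 replicate 2 left out, and 0.21, with replicate 1 of that group left out, and so had no settled sign. Sox4 was 0.71 when null day 8 replicate 1 was left out and 0.69 when the wild-type array of that number was, but 0.02 with null day 8 replicate 2 removed and 0.05 with wild-type day 8 replicate 2 removed. Gata2 was 0.09 when the first null array was left out and 0.33 when the second was, and 0.14 with the second wild-type array removed. None was called with any array left out. These intervals still allow a difference as large as that of the first Myb probe set, so the 3 are not shown to behave otherwise.

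In progenitors the genotypes were compared in the same way at day 4, where 0.582% of probe sets were called higher and 2.14% lower in null cells. None of the 6 was called by limma. Gata2 had an unadjusted p below 0.05, but the share of all tested probe sets with such a value was not counted. Myb differed by -0.02, 0.03 and -0.01 at its 3 probe sets, with 95% intervals that together ran from -0.24 to 0.21. Myc differed by 0.10 (-0.17 to 0.37, adjusted p = 0.73) and Sox4 by 0.03 (-0.48 to 0.54, adjusted p = 0.969). Neither kept its sign with each array left out: Myc was -0.05 with wild-type day 4 replicate 1 removed and 0.25 with replicate 2 of that group removed, and Sox4 was -0.08 without null day 4 replicate 2 and 0.14 without null day 4 replicate 1. Gata2 was the exception in size: the null day 4 arrays (9.26 and 9.53) lay below the wild-type day 4 arrays (9.58 and 9.83), a difference of -0.31 (SE 0.14, -0.61 to -0.01, unadjusted p = 0.0457, adjusted p = 0.265). The difference was -0.18 when null day 4 replicate 1 was left out, and again when wild-type day 4 replicate 2 was, with unadjusted p = 0.324 and 0.275, and -0.44 without either of the other 2 day 4 arrays. The unadjusted p was below 0.05 in 7 of 16 alternatives. The nearest arrays of the 2 groups were only 0.05 apart, and 27.8% of tested probe sets were without overlap in that direction.

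**Figure D5:**
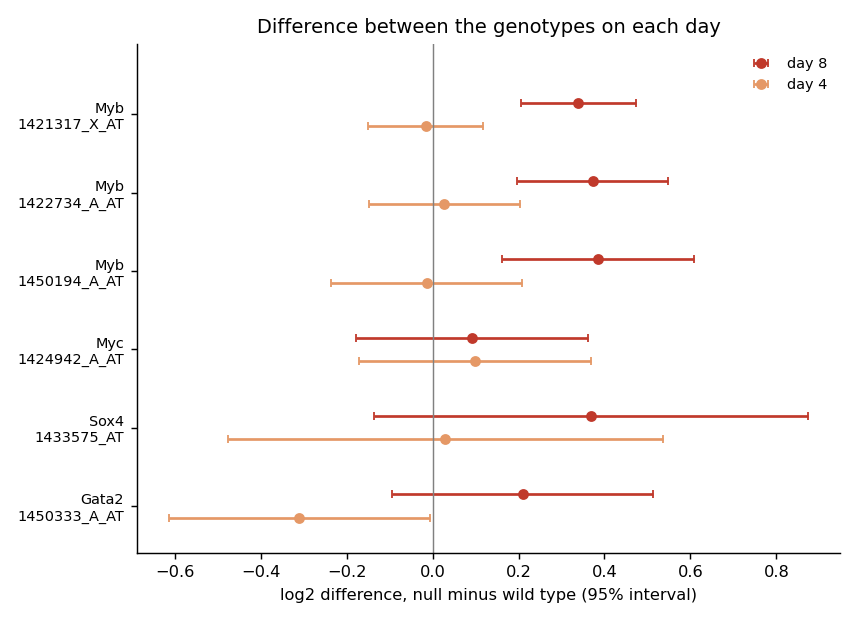
Log2 difference, null minus wild type (horizontal axis), of the 6 probe sets at day 8 and at day 4. Points are estimates from 2 arrays a group and bars are 95% intervals of the model. At day 8 the bars of the 3 Myb probe sets lie right of 0, and at day 4 they span it. The Gata2 points lie on opposite sides of 0, and neither of these differences was called.

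Whether the effect of the null genotype differed between the days was tested itself, as the difference at day 8 minus that at day 4, for which 1.55% of probe sets were called positive and 0.111% negative. None of the 6 was called by limma. An unadjusted p below 0.05 was found for Gata2 and for the Myb probe sets, which were read from the same RNA. The share of all tested probe sets below that value was not counted, so no excess can be read from this. The Myb differences were 0.35 (SE 0.09, 95% interval 0.17 to 0.54, unadjusted p = 0.0017, adjusted p = 0.0702), 0.35 (0.10 to 0.59, adjusted p = 0.154) and 0.40 (0.08 to 0.71, adjusted p = 0.192). That of Gata2 was 0.52 (SE 0.19, 0.09 to 0.95, unadjusted p = 0.022, adjusted p = 0.213). Its null arrays lay below wild type at day 4 and above it at day 8, with neither difference called. Scaled to the spiked hybridization controls, the Myb values were 0.17, 0.16 and 0.21 (unadjusted p = 0.272, 0.347 and 0.24) and that of Gata2 was 0.34 (unadjusted p = 0.148), so that none of the 6 then had an unadjusted p below 0.05. Without null day 4 replicate 1 the first Myb probe set alone kept one (0.31, unadjusted p = 0.0142). Myc gave -0.01 (-0.39 to 0.37) and Sox4 0.34 (-0.38 to 1.06). The Sox4 value was thus close in size to those of Myb, with a wider interval. So the smaller measured falls of Myb, Gata2 and Sox4 in null cells did not pass the test over all probe sets.

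How alike the members were over the 8 arrays was described by the root mean square difference between 2 probe sets, each centred on its own mean. This measure is largely set by how far each probe set fell, so it adds little to the fold sizes. The 3 Myb probe sets differed from each other by 0.09 to 0.15 on the log2 scale. The first and the second were the least alike of these, with 48 tested probe sets nearer to the first and 27 nearer to the second. From 1085 to 2284 tested probe sets were nearer to a Myb probe set than Gata2 was. Myb and Gata2 differed by 0.53 to 0.66, Myc and Gata2 by 0.51, Myc and Sox4 by 0.98, Myb and Myc by 0.97 to 1.12, Sox4 and Gata2 by 1.46, and Myb and Sox4, the least alike, by 1.93 to 2.08. Among 22518 other tested probe sets, the one most like the first Myb probe set was 1431469_A_AT (0.06). Its means were 6.19 in null day 8 cells and 5.88 in wild-type day 8 cells, against 8.87 in null day 4 cells and 8.90 in wild-type day 4 cells. The one most like Myc was 1416122_AT (0.07), with means of 6.34 in null day 8 cells and 6.33 in wild-type day 8 cells, against 11.54 in null day 4 cells and 11.43 in wild-type day 4 cells. The files do not pair either identifier with a gene.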

How the data were processed

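Total RNA of each sample was biotin-labelled and hybridized to 1 Affymetrix array, 8 arrays in all. The values deposited by the authors were read as log2 signals per probe set from their range, since no source used here states the scale. The software GCOS is named, without a version, per the submitters' processing notes. How probes were summarized, background-corrected and normalized is not given in the sources used here, and array medians lay between 5.44 and 5.50, so the table was analysed as deposited. A background correction can change the size of falls that end near background.

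Probe sets that are no controls and whose mean over all arrays reached the median of such means (5.51) were tested, 22519 of 45037. All 6 probe sets described passed. One mean per group was fitted with limma 3.58.1 in R 4.3.3 (lmFit, then eBayes with a trend on mean signal), with two-sided tests, Benjamini-Hochberg adjustment over the 22519, and calls at an adjusted p below 0.05. The 5 comparisons were day 8 against day 4 in each genotype, null against wild type on each day, and the interaction. The steps were tested on simulated data. With 2 arrays against 2, an exact permutation test cannot go below p = 0.333, so calls rest on the spread shared across groups and probe sets, which may be technical.

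The members and lists were chosen with earlier results of these data known. The 5 gene lists and the marker lists of other cell types were not analysed here, because no table pairs the identifiers with symbols. Named were all 6 members and, for Myb and Myc, the probe set most like each. The alternatives were other filters (none, or a mean of 7.85), other normalizations (quantile, same median, cyclic loess, 18 spiked hybridization controls), no intensity trend, the replicate number as a block, and leaving out each array. A fit on only the 4 arrays compared was added after seeing the data.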

Additional observations from a re-analysis of the deposited data

How the results depend on the processing

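Every fall from day 4 to day 8 kept its direction and its call, at all 6 probe sets and in both genotypes, in every alternative that tested the probe set (17 for Myb and Myc, and 16 for Sox4 and Gata2, which the stricter filter left out). The lowest and highest log2 changes over these were -3.51 and -2.57 for Myb, -5.45 and -4.94 for Myc, -7.51 and -6.50 for Sox4 and -4.59 and -3.76 for Gata2. Scaling to the hybridization controls moved the median of all tested probe sets to -0.35 in null cells and -0.21 in wild-type cells, against 0.00 and -0.04 as deposited, and moved each of the 6 by as much. Of the calls between the days, 29.9% were then higher in null cells and 36.1% in wild-type cells, against 47.4% and 46% as deposited. In the genotype comparison at day 8 the count of called members was 2 as deposited. It was 0 after that scaling and 0 without the intensity trend. It was 1 on only the 4 arrays compared, where the second Myb probe set had an adjusted p of 0.0533. Leaving out 1 array gave counts of 0 to 2. The cause of these changes was not tested. At day 4 and in the interaction the count stayed at 0 in every alternative. Over all probe sets, calls at day 8 numbered 1195 as deposited, 694 after that scaling (47% higher, against 77.1% as deposited), 747 without the trend, and 353 to 1698 with 1 array left out. At day 4 they numbered 613 (21.4% higher, against 51.9% after that scaling and 34.3% after cyclic loess), but 222 without the trend, 98 on the 4 arrays alone, and 128 to 1658 with 1 array left out. In the interaction they numbered 373 (93.3% positive), but 124 after that scaling (49.2%), 209 after quantile normalization, 198 after cyclic loess, 129 without the trend, and 47 to 890 with 1 array left out. The labels give the groups the same replicate numbers, but the deviations of same-numbered arrays correlated at only -0.05 to 0.22, so the numbers were not taken as pairs. With the replicate block the count of called members was 6 in each day comparison, 2 between the genotypes at day 8, 0 at day 4 and 0 in the interaction. The first 2 Myb probe sets then had adjusted p of 0.0141 and 0.0307 at day 8. At day 8 the signal of Sox4 was near background, that of Gata2 near the arrays' median and Myc not far above Gata2. This limits what their day 8 values can show.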
